A study of Mus musculus with 6 samples.

Results

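The 6 genes of the platelet-derived growth factor (PDGF) family comprise the ligand genes Pdgfa, Pdgfb, Pdgfc and Pdgfd and the receptor genes Pdgfra and Pdgfrb. They were chosen by name and found by Ensembl identifier, 6 of the 57180 rows with an identifier in a table of read counts. The table covers 6 libraries of mouse calvaria-derived cells, cultured from the bones of the skull roof. The 3 wt libraries came from C57BL/6 mice, and the 3 FasL KO libraries from B6Smn.C3-Faslgld/J mice, homozygous for gld, a point mutation of the Fas ligand gene Fasl. All cells were differentiated in MEM alpha with 10% fetal bovine serum, 4 mM β-glycerophosphate and ascorbate at 50 mg/ml, so no undifferentiated culture is among them. The stated aim was to find extracellular matrix components affected by a lack of Fas ligand in osteoblasts. The labels do not say whether libraries came from separate animals or cultures, or whether wt and FasL KO mice were littermates. The p-values thus rest on the spread among the 3 libraries of a group, and that spread may be technical.

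PDGF chains are secreted as disulphide-linked dimers that bring together and activate receptor tyrosine kinases on mesenchymal cells. The α receptor (Pdgfra) binds A, B and C chains, and the β receptor (Pdgfrb) binds B and D chains. In bone, cells of the osteoblast lineage carry PDGF receptors and answer with division and migration, and PDGF-BB is known as a product of platelets, endothelium and cells of the macrophage and osteoclast lineage.

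Library totals ran from 2011173 to 5245546 counts and were higher in each FasL KO library than in each wt library. Fasl was listed at 0 counts in all 6 libraries, and because gld is a point mutation the count checks neither label. Of the osteoblast markers, Col1a1 had at least 13394 counts in every library, whereas Bglap, Spp1 and Sp7 had 1, 4 and 20 counts over all 6. In the annotation, more than 1 transcript shares the 3′ end of Bglap, Spp1 and Sp7, unlike that of Col1a1. As set out below for the PDGF genes, such low counts set no bound on the transcripts. Over all 8692 genes tested with edgeR, 17.4% were called at an adjusted p of 0.05, 9.74% higher and 7.69% lower in FasL KO. Of 7 tested osteoblast markers of 10, 5 were called higher and 1, Alpl, lower. Ibsp, Dmp1 and Phex, 3 of those higher, had 3, 2 and 0 counts in wt and passed the low-count filter through FasL KO alone, so their calls are no support. Among genes with at least 10 counts in all 6 libraries, 2 osteoblast markers were called higher and 1 lower. Of 5 tested myofibroblast markers of 6, 1 was called higher and 4 lower, and with that stricter filter 0 and 4.

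Among the ligands, Pdgfa and Pdgfb changed in opposite directions. Pdgfa was 2.06-fold lower in FasL KO, and Pdgfb was counted in the 3 FasL KO libraries and in none of the wt libraries. Pdgfc, Pdgfd and Pdgfrb had 1 count or none and could not be compared, and Pdgfra, with 41 counts in all, was tested and not called. Of the 6 genes 3 passed the filter on low counts, Pdgfb through the FasL KO libraries alone. Against the background of 7.69% of genes called lower, Pdgfa was called lower. The counts in each library, scaled to library totals as CPM with TMM normalization, are plotted for all 6 genes.

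**Figure D1:**
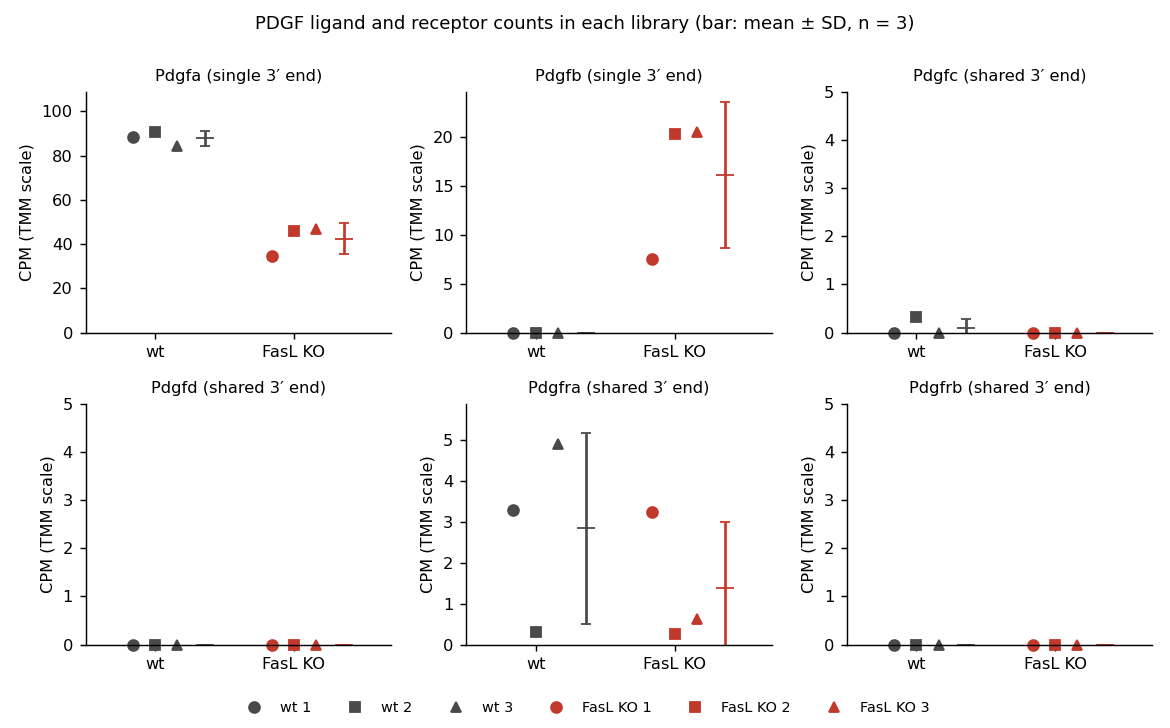
Level of each PDGF ligand and receptor gene in CPM (y axes, linear, of different range) in the 3 wt and 3 FasL KO libraries, with 1 symbol per replicate and the mean ± SD beside each group (n = 3, cut at 0). Pdgfa is lower in each FasL KO library (34.4 to 46.8 CPM) than in each wt library (84.1 to 90.7 CPM), Pdgfb is at 0 in wt, and the remaining genes are at or near 0.

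Pdgfa encodes the A chain, which signals through the α receptor. The gene (ENSMUSG00000025856) lies on GRCm38 chromosome 5, 138976014 to 138997370, minus strand. Counted reads numbered 188, 287 and 274 in wt 1 to 3, and 138, 175 and 228 in FasL KO 1 to 3. The wt levels were 88.3, 90.7 and 84.1 CPM, close together, and the FasL KO levels were 34.4, 46.1 and 46.8 CPM, with FasL KO 1 the lowest. The groups did not overlap, as was true of 33.3% of all genes tested. The means were 87.7 ± 3.34 CPM in wt and 42.5 ± 6.96 CPM in FasL KO (SD, n = 3). Pdgfa fell by 1.05 ± 0.21 (SE) on the log2 scale, a 2.06-fold lower level, with an edgeR adjusted p = 0.00234. The 95% interval of the log2 difference ran from −1.49 to −0.60, all on the side of a lower level in FasL KO.

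Pdgfb encodes the B chain, the ligand of both receptors. The gene (ENSMUSG00000000489) lies on GRCm38 chromosome 15, 79995874 to 80014977, minus strand. It had no count in the 3 wt libraries and 30, 77 and 100 counts in FasL KO 1 to 3, or 7.48, 20.3 and 20.5 CPM. FasL KO 1 was well below the other FasL KO libraries, and each of the 3 was above the 0.748, 0.791 and 0.616 CPM that 3 counts are worth in them. The FasL KO mean was 16.1 ± 7.47 CPM (SD, n = 3). With no count in wt, the level there could have been as high as 0.351 CPM (3 counts over the group, counting error only). Against that floor Pdgfb was at least 45.9-fold higher in FasL KO. Without wt 2 or wt 3 this bound was 28.9 or 28.4, since the floor then rests on fewer counts, and it leaves out the error of the FasL KO mean. The edgeR adjusted p was 0.000224. Pdgfb passed the low-count filter through the FasL KO libraries alone.

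The proportion of the ligand transcripts that Pdgfb made up does not depend on how libraries are scaled. Pdgfb took 0 of 749 Pdgfa and Pdgfb counts in wt together, which allows a share of up to 0.401%. In FasL KO 1 it took 17.9% of 168 such counts (95% exact binomial interval 12.4 to 24.5). In FasL KO 2 it took 30.6% of 252 (24.9 to 36.6), and in FasL KO 3 30.5% of 328 (25.5 to 35.8). The FasL KO mean was 26.3% ± 7.31 (SD, n = 3), and Pdgfa counts remained more numerous than Pdgfb counts in all 3 FasL KO libraries. Intervals and limits here cover counting error only.

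Pdgfc and Pdgfd encode the C and D chains, which carry a CUB domain that proteases must remove before the ligand can bind. Pdgfc (ENSMUSG00000028019, GRCm38 chromosome 3, 81036416 to 81214040, plus strand) had 1 count, in wt 2. Pdgfd (ENSMUSG00000032006, chromosome 9, 6168584 to 6378850, plus strand) was listed at 0 in all 6 libraries. Neither could be tested.

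The receptor genes had few counts or none. Pdgfra (ENSMUSG00000029231, GRCm38 chromosome 5, 75152292 to 75198215, plus strand) was counted 7, 1 and 16 times in wt, and 13, 1 and 3 times in FasL KO. The groups overlapped, with 1 library of each group at a single count. The means were 2.84 ± 2.33 CPM in wt and 1.37 ± 1.63 CPM in FasL KO (SD, n = 3). The log2 difference was −1.03 ± 1.26 (SE, edgeR adjusted p = 0.684), and its 95% interval from −3.73 to 1.67 holds changes in either direction. It was −2.60 without FasL KO 1 (adjusted p = 0.417) and −0.35 without wt 3 (adjusted p = 0.958). Pdgfrb (ENSMUSG00000024620, chromosome 18, 61045150 to 61085061, plus strand) was listed at 0 in all 6 libraries and could not be tested. All receptor counts in these libraries were therefore Pdgfra counts, which gives no measure of the balance between the receptors.

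Which of the 6 genes had counts went along with how their transcripts end in the annotation. These libraries read the 3′ end of the transcript, so the final 300 exonic bases of the principal transcript were compared with every transcript that GENCODE M21 gives for the gene. For Pdgfa (7 annotated transcripts) and Pdgfb (4), 100% of these bases lie in a single transcript. The figure is 2.0% for Pdgfc (3 transcripts), 1.7% for Pdgfrb (2), and 0.0% for both Pdgfd (3) and Pdgfra (9). The median was 748.5 counts over the 6 libraries for the 2 genes with a single-transcript end and 0.5 for the 4 with a shared end. No exon of another annotated gene overlaps these bases in any of the 6. Among 100 other genes of the pathway, 4 of the 49 whose end lies in a single transcript (8.16%) were listed at 0 in every library, as were 25 of the 51 whose end is shared (49%). Among all protein-coding genes these shares were 38% of 11207 and 57.3% of 10585. A count of 0 for Pdgfrb or Pdgfd thus means that the gene is listed at 0, and sets no bound on its transcript.

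**Figure D2:**
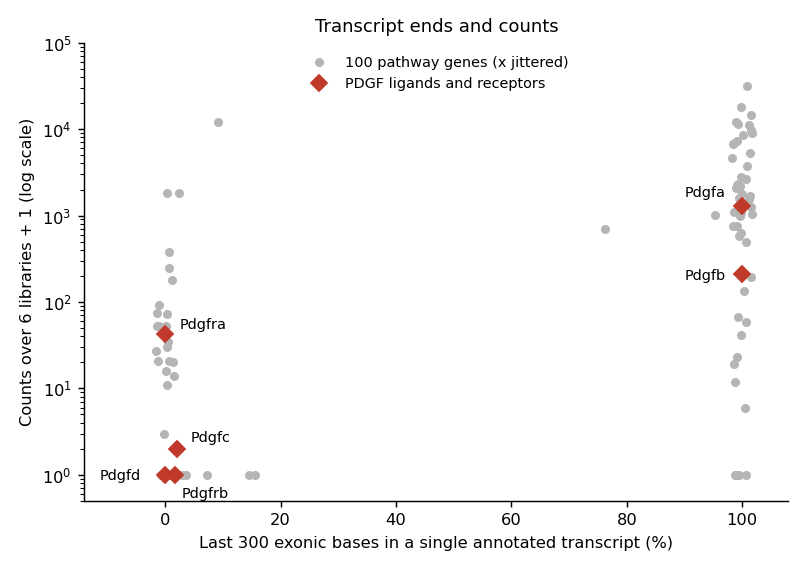
Counts summed over the 6 libraries plus 1 (y axis, log scale) against the share of the last 300 exonic bases that lie in a single annotated transcript (x axis, %), for the 6 PDGF genes (diamonds) and 100 other pathway genes (circles, shifted slightly sideways at random). Pdgfa and Pdgfb sit at 100% with 1290 and 207 counts, and the other 4 PDGF genes sit at 2.0% or less with 41 counts at most.

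Pdgfb was counted in FasL KO only, the group in which several macrophage and osteoclast markers were also higher. Of 22 macrophage and osteoclast markers 9 were tested and 8 were called higher in FasL KO, against 9.74% of all genes. Of these 8, 6 (Cd68, Mrc1, C1qa, C1qb, C1qc and Laptm5) had under 10 counts over the wt libraries and passed the filter through FasL KO alone, so their count is no support. Among genes with at least 10 counts in all 6 libraries, 1 marker was called higher and 1 lower. The marker that was lower, Cd14, fell by 1.56 ± 0.24 on the log2 scale (SE, edgeR adjusted p = 0.000234; named after its value was seen). The complement gene C1qc, a product of macrophages, had no count in wt and was at least 531-fold higher in FasL KO (334-fold without wt 2 and 328-fold without wt 3). C1qa, C1qb and Laptm5, a lysosomal protein gene of blood cells, were called higher (largest edgeR adjusted p = 1.02e-06). These calls rest on genes that passed the filter through FasL KO alone, so they are no support. C1qa missed the threshold in limma-voom (adjusted p = 0.0699). Adgre1, Csf1r, Tyrobp, Fcer1g, Ctss, Acp5, Dcstamp, Oscar and Calcr were listed at 0 in all 6 libraries. Of these 9, Csf1r has a single-transcript end and the others a shared one. The Csf1r end overlaps a gene on the opposite strand, Hmgxb3, and the strand setting of the counting is not known.

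The summed level of the macrophage and osteoclast list ran from 425 to 615 CPM in wt and from 2740 to 6710 CPM in FasL KO, without overlap. A few genes, named after their values were seen, make up most of this sum. Lyz2, a lysozyme gene of myeloid cells, was 65.1% to 74.3% of it in FasL KO and 0.738% to 19.4% in wt. Cd14 and Ctsk, an osteoclast protease gene, were together 79.7% to 99.3% of it in wt. The other 19 markers summed to 0, 5.37 and 0.61 CPM in wt 1 to 3, and to 390, 605 and 1175 CPM in FasL KO 1 to 3. FasL KO 1 was the lowest of the FasL KO libraries in both Pdgfb and these markers. FasL KO 3 had 6713 CPM of the markers against 4097 in FasL KO 2, while Pdgfb was 20.5 and 20.3 CPM. Per 1000 counts of C1qa, C1qb and C1qc together, there were 28.5, 45.7 and 25.2 counts of Pdgfb in FasL KO 1 to 3. The part of these cells in the Pdgfb counts was not tested. In bulk RNA, more cells of a type and more RNA per cell cannot be told apart.

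**Figure D3:**
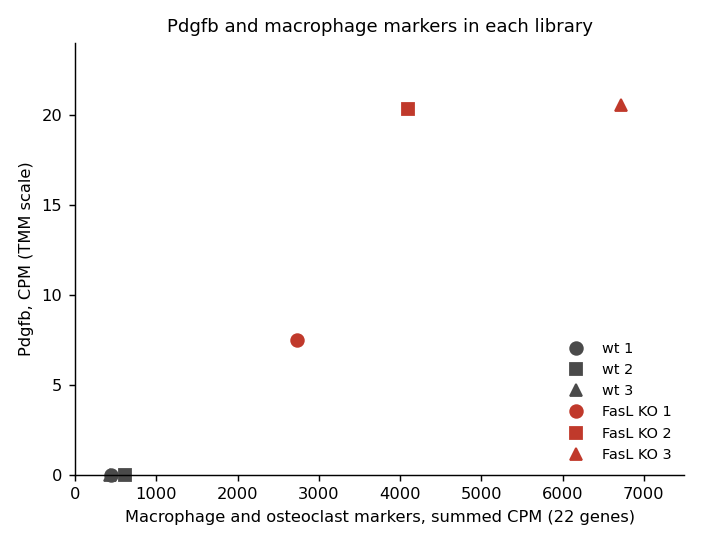
Pdgfb level in CPM (y axis) against the summed CPM of 22 macrophage and osteoclast markers (x axis), 1 point per library. The 3 wt points lie at 0 CPM of Pdgfb with 425 to 615 CPM of the markers, and the 3 FasL KO points lie at 7.48 to 20.5 CPM of Pdgfb with 2740 to 6710 CPM of the markers, of which Lyz2 is 65.1% to 74.3%.

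Endothelium and platelets are other known sources of PDGF-B. Shared transcript ends, at which a listed 0 sets no bound, were found for 7 of 12 endothelial and 5 of 8 platelet markers. Of 12 endothelial markers 2 were tested and neither was called, Plvap at 2.43 ± 1.25 and Kdr at 1.51 ± 1.16 on the log2 scale (SE, edgeR adjusted p = 0.232 and 0.469). Plvap was 4.75 without wt 2 and 1.84 without wt 3, and Kdr was 4.57 without wt 3. Their summed level was 0.94 to 5.53 CPM in wt and 4.48 to 15.7 CPM in FasL KO, with overlap, and 9 of the 12, Pecam1 and Cdh5 among them, were listed at 0. Of 8 megakaryocyte and platelet markers 1 was tested, the platelet chemokine gene Ppbp, at 0.86 ± 0.88 (SE, edgeR adjusted p = 0.616). Pf4 and 4 others were listed at 0.

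Cells that usually carry PDGF receptors were traced by their other markers. Of 12 mural cell markers 2 were tested, and the pericyte gene Rgs5 went from 40.6 ± 11.3 to 5.26 ± 0.27 CPM (SD, n = 3). Rgs5 fell by 2.94 ± 0.37 in log2 terms (SE, edgeR adjusted p = 4.24e-05). Notch3, a receptor of vascular smooth muscle and pericytes named after its value was seen, had a log2 difference of 0.07 ± 0.33 (edgeR adjusted p = 0.942). Of 12 mesenchymal progenitor markers 4 were tested and 3 fell, or 75% of those tested against 7.69% of all genes. The ectonucleotidase gene Nt5e fell by 3.55 ± 0.24 and the surface glycoprotein gene Thy1 by 1.46 ± 0.33 (SE, edgeR adjusted p = 1.03e-07 and 0.00628). The transcription factor gene Prrx1 fell by 0.51 ± 0.15 (adjusted p = 0.0312), a call lost without wt 2 (0.132), FasL KO 2 (0.0518) or FasL KO 3 (0.101). The fourth, Twist1, had −0.16 ± 0.15 (edgeR adjusted p = 0.577, named after its value was seen). Rgs5 and Prrx1 lie on GRCm38 chromosome 1, as Fasl does, and an effect of strain sequence linked to gld was not tested. The summed progenitor markers ran from 642 to 804 CPM in wt and from 386 to 470 CPM in FasL KO. Most of that sum is Prrx1, Twist1 and Nt5e. The summed mural markers ran from 56.9 to 84.1 and from 31.2 to 36.9 CPM. Most of the mural sum is Rgs5 and Notch3, and Notch3 had means of 23.9 CPM in wt and 25.2 CPM in FasL KO. Shared transcript ends were found for 9 of 12 mural and 7 of 12 progenitor markers, Thy1 and Prrx1 among them. Listed at 0 were 6 mural and 3 progenitor markers. Pdgfa, like these sums, was lower in FasL KO without overlap, as were 15.2% of all genes tested. The split into wt and FasL KO sets this match, and the part of these markers in the Pdgfa difference was not tested.

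Of the genes that mature or bind PDGF, 3 fell in FasL KO and 1, Pdgfrl, rose. Of 13 such genes 7 were tested and 3 were not called, that is 57.1% called against 17.4% of all genes. The median log2 difference of the 7 was −1.05 against 0.02 for all genes. That median is the value of Pcsk7, which was not called and had 41 counts in all and an SE of 1.36. Pdgfrl, whose product resembles the ligand-binding region of PDGF receptors, was counted 30, 42 and 96 times in wt, and 921, 857 and 810 times in FasL KO. All FasL KO libraries were far above wt, and wt 3 was the highest of the wt libraries. Its level went from 19.0 ± 9.12 to 207 ± 35.6 CPM (SD, n = 3), a rise of 3.43 ± 0.28 on the log2 scale (SE, edgeR adjusted p = 6.42e-07). It rose in every setting tried, from 3.20 without wt 2 to 3.92 without wt 3.

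Plat encodes tissue plasminogen activator, a protease that activates PDGF-CC. It was counted 274, 552 and 394 times in wt, and 132, 198 and 116 times in FasL KO, and the groups did not overlap in CPM. Its level fell from 141 ± 28.9 to 36.3 ± 14.5 CPM, a log2 difference of −1.97 ± 0.27 (edgeR adjusted p = 9.40e-05). Plau encodes urokinase, which can activate PDGF-DD. Plau fell from 84.8 ± 6.49 to 39.8 ± 19.1 CPM, by 1.09 ± 0.32 (edgeR adjusted p = 0.0283). The Plau call was lost without wt 1, wt 2 or wt 3 (adjusted p = 0.0663, 0.0596 and 0.106). Nrp1 encodes neuropilin 1, a co-receptor that also binds PDGF. Nrp1 stood at 404, 510 and 462 CPM in wt, against 221, 214 and 221 CPM in FasL KO, a tight group, and fell by 1.07 ± 0.13 (edgeR adjusted p = 2.46e-05).

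The other 3 tested genes of this list, named after their values were seen, were not called. Lrp1, an endocytic receptor that associates with the β receptor, had a log2 difference of −0.35 ± 0.12 (edgeR adjusted p = 0.0545), and was past the threshold in DESeq2 (0.0141), limma-voom (0.0234), with library size alone (0.00531) and without FasL KO 3 (0.042). The convertase gene Pcsk5 had −0.39 ± 0.17 (edgeR adjusted p = 0.15), past the threshold with library size alone (0.0345). Pcsk7, another convertase, had −1.05 ± 1.36 (edgeR adjusted p = 0.71), −2.87 without FasL KO 1, on 41 counts in all.

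**Figure D4:**
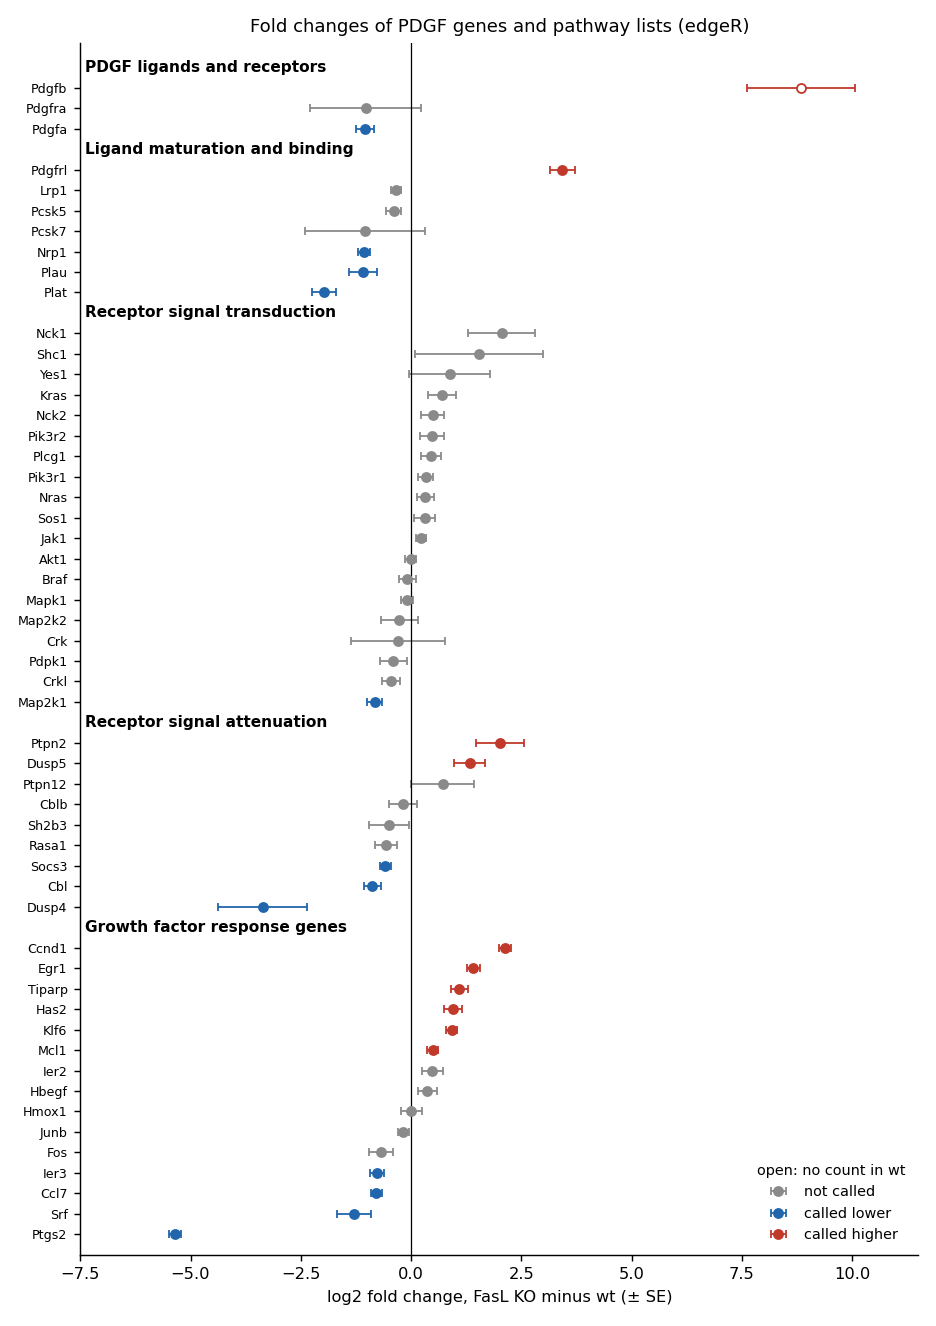
Log2 fold change of FasL KO minus wt (x axis, points with SE bars, edgeR) for every tested gene of the PDGF family and of 4 pathway lists, coloured by call, with an open point for Pdgfb, whose fitted value depends on the prior count because wt had no count. Of the 19 receptor signal transduction genes 18 were not called, and Pdgfrl and Ptgs2 stand far to either side.

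Of the tested genes that carry the signal from the receptors into the cell, only Map2k1 was called. Of 39 adaptor, kinase and Ras pathway genes 19 were tested, 0 rose and 1 fell, or 5.26% against 17.4% of all genes. The 20 not tested include 9 listed at 0, Src, Grb2 and Ptpn11 among them. Of the 21 genes with shared transcript ends 6 were tested. Map2k1, the kinase MEK1, fell from 149.5 ± 24.3 to 84.2 ± 6.97 CPM, a log2 difference of −0.83 ± 0.18 (edgeR adjusted p = 0.00392). The number called was 2 without wt 2, wt 3 or FasL KO 3. Their median log2 difference was 0.30 against 0.02 for all genes, and the many genes not called are not thereby shown to be equal.

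Genes that dampen receptor signals went both ways. Of 21 listed 9 were tested, 2 rose, 3 fell and 4 were not called, 55.6% called against 17.4% of all genes, with a median of −0.50. Of the 21, 11 were listed at 0, and 4 of the 14 with shared transcript ends were tested. Among genes with at least 10 counts in all 6 libraries, 1 rose and 2 fell. The cytokine signalling inhibitor gene Socs3 fell from 430 ± 18.6 to 287 ± 16.3 CPM, a log2 difference of −0.58 ± 0.12 (edgeR adjusted p = 0.00251). Cbl, a ubiquitin ligase that targets activated PDGF receptors for degradation, fell by 0.88 ± 0.19, from 116 ± 18.7 to 63.3 ± 3.55 CPM (edgeR adjusted p = 0.0038). The MAP kinase phosphatase gene Dusp5 rose by 1.33 ± 0.35 and the tyrosine phosphatase gene Ptpn2 by 2.02 ± 0.55 (edgeR adjusted p = 0.0151 and 0.0182). Cbl and Ptpn2 have shared transcript ends. Dusp4, another MAP kinase phosphatase gene, was named after its value was seen. It was counted 17, 50 and 49 times in wt, and 1, 0 and 16 times in FasL KO. It passed the low-count filter through the wt libraries, so its call is no support. Its log2 difference was −3.36 ± 1.01 (edgeR adjusted p = 0.0316), or −6.31 without FasL KO 3.

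The calls of Dusp5, Ptpn2 and Dusp4 were each lost in some settings. The Dusp5 call was lost without wt 3 (adjusted p = 0.0647) or FasL KO 1 (0.0513). The Ptpn2 call was lost in limma-voom (0.0608) and without wt 1 (0.0612), wt 3 (0.066) or FasL KO 1 (0.0744). The Dusp4 call was lost in limma-voom (0.0672) and without wt 2 (0.111), wt 3 (0.116), FasL KO 1 (0.0829) or FasL KO 2 (0.0613). The number called in this list was 2 without wt 3 or without FasL KO 1.

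Genes that growth factors such as PDGF are known to induce in fibroblasts changed in both directions. Of 27 listed 15 were tested, 6 rose, 4 fell and 5 were not called, 66.7% against 17.4% of all genes, with a median of 0.37. Of the 27, 8 were listed at 0, Myc and Jun among them, and 1 of the 11 with shared transcript ends was tested. The cell cycle gene Ccnd1 (cyclin D1) rose from 188 ± 33.0 to 823 ± 20.1 CPM, a log2 difference of 2.13 ± 0.14 (edgeR adjusted p = 6.55e-08), although its end overlaps a gene on the opposite strand. The early response transcription factor genes Egr1, which has a shared transcript end, and Klf6 rose by 1.41 ± 0.14 and 0.92 ± 0.12 (edgeR adjusted p = 5.29e-06 and 6.66e-05). Against these, Ptgs2, the inducible cyclooxygenase gene, fell by 5.36 ± 0.13 (SE, edgeR adjusted p = 1.34e-11). Ptgs2 also lies on GRCm38 chromosome 1, as Fasl does, and an effect of strain sequence linked to gld was not tested. Many other signals induce the same genes, and the labels mention no addition of PDGF.

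The genes whose levels ran most like those of Pdgfa and Pdgfb were found by Pearson correlation of log2 CPM over the 6 libraries, among 4190 protein-coding genes. The 6 points share the split into wt and FasL KO, which sets most of each value. Closest to Pdgfa were Rab3c (r = 0.998), Dkk3 (0.998) and Pvr (0.997), with log2 differences of −7.01, −0.96 and −2.16. Closest to Pdgfb were Pdp1 (0.998), Hexa (0.998) and Crym (0.996), and Crym, like Pdgfb, had no count in wt (51, 84 and 186 in FasL KO). For Pdgfra the highest was Mrpl43 (0.959), on too few Pdgfra counts to be read further.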

How the data were processed

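Total RNA was made into QuantSeq 3′ FWD libraries, 3 of wt and 3 of FasL KO, per the labels' protocols. The series' design text names Cutadapt and STAR. Trim Galore, FastQC, DESeq2 and the mm10 build are listed in the submitters' processing notes. How reads were counted, with which strand setting and which gene models, is not given in the sources used here. The authors deposited unnormalized whole-number counts of reads for each Ensembl gene. There were 57180 rows with an identifier and 1 empty row, left out. Of these identifiers 51932 are in GENCODE M21 (GRCm38), which gave symbols, positions and transcript ends, so the authors' release was another one. An end was called single if 99% or more of the last 300 exonic bases of the principal transcript (by APPRIS, then length) lie in 1 transcript.

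Genes were kept by filterByExpr (minimum of 10 counts, 15 in total), scaled by TMM and tested with the quasi-likelihood test of edgeR 4.0.16 in R 4.3.3 over all 6 libraries, with Benjamini-Hochberg adjustment over 8692 genes. Log2 fold changes are FasL KO minus wt, and the SE is their size over the root of the F statistic. The procedure was tested on simulated data. DESeq2 1.42.0, limma-voom (limma 3.58.1), other scalings and filters, a replicate block and leaving out each library were the alternatives. The family and the lists (4 of the pathway, 7 of cell type markers) were chosen with earlier results of these data known. From each list up to 4 called genes are named by adjusted p, and the 2 most counted where none was called. Like patterns use a prior count of 2 and genes with a mean of at least 50 counts. No protein sequences were used here.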

Additional observations from a re-analysis of the deposited data

How the results depend on the processing

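Pdgfa stayed lower and past the threshold under every alternative run, and ran from −1.20 (library size alone) to −0.93 (without FasL KO 1) on the log2 scale, with a largest adjusted p = 0.0114. Pdgfb had no wt count and passed the filter through FasL KO alone, so its adjusted p-values (the largest 0.0173, in limma-voom) say nothing of its stability, and the filter of at least 10 counts in all 6 libraries left out Pdgfb and Pdgfra. The lower bound of the Pdgfb fold ran from 28.4 to 58.2 and the mean Pdgfb share from 24.2% to 30.5% when libraries were left out, alternatives chosen after seeing the data, as were those of single list genes. In the list that dampens receptor signals, 3 genes were called with limma-voom and 3 with at least 10 counts in all 6 libraries, against 5. Leaving out 1 library gave 2 to 5 there, and 1 to 2 in the signal transduction list. Over all genes, library size alone moved the median log2 difference from 0.02 to −0.14 and gave 720 genes higher and 975 lower, against 847 and 668. Notch3, not called, changed sign with library size alone (−0.090) and ran from −0.12 to 0.22 with 1 library left out. The low-count filter removed Pdgfc, Pdgfd and Pdgfrb from the test.

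The replicate numbers share no stated source, and same-numbered wt and FasL KO libraries deviated from their group means with correlations of −0.023, −0.015 and −0.023. With the replicate block, 1359 genes were called, against 1515. With it, Pdgfa had −1.05 (adjusted p = 0.00696), Pdgfb 8.92 (adjusted p = 0.00198) and Pdgfra −1.14 (adjusted p = 0.732). Pdgfra had 41 counts in all, and its 95% interval ran from −3.73 to 1.67.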
